A study of Mus musculus with 16 samples.

Results

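The collagen genes of the mouse embryonic heart at embryonic day 10.5 were taken as all genes whose symbol is Col, a number, the letter a and a second number, which gave 44 of the 27179 genes in the table. Of these, 11 encode chains of fibrillar collagens, 8 encode chains of basement membrane collagens (types IV, XV and XVIII) and 25 encode other collagens. RNA was sequenced from whole hearts of 16 embryos, 4 of each genotype. The genotypes were Ing4+/- Ing5-/- (3 of the 4 alleles of Ing4 and Ing5 lost), Ing4+/+ Ing5-/- (both Ing5 alleles lost), Ing4+/- Ing5+/+ (1 Ing4 allele lost) and wild-type (Ing4+/+ Ing5+/+). Ing4 and Ing5 encode chromatin proteins of histone acetyltransferase complexes. Embryos of 7 litters were used, but Ing4+/+ Ing5-/- and wild-type embryos never shared a litter. Hearts 1 and 2 of Ing4+/+ Ing5-/- were littermates (litter 1), as were wild-type hearts 2 and 3 (litter 5).

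Collagens are secreted proteins made of 3 chains wound into a triple helix. Fibrillar collagens assemble into the fibrils that give connective tissue its tensile strength, and type IV collagen forms the sheet-like network of the basement membrane under epithelia, endothelium and muscle. In the embryonic heart, collagens lie in the basement membranes around the cardiomyocytes, the endocardium and the epicardium, and in the cushions from which the valves form. Chains are hydroxylated and folded in the endoplasmic reticulum before secretion, and enzymes outside the cell then trim and cross-link them.

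The 16 libraries held between 19753100 and 35664331 counted reads. Cardiomyocyte genes had a summed level of 26048 to 42994 CPM (counts scaled to the TMM-adjusted library size) in single hearts, so the libraries held the markers of the labelled tissue. Ing5 averaged 21 ± 2.75 CPM in Ing4+/- Ing5-/- and 23.5 ± 4.48 CPM in Ing4+/+ Ing5-/- hearts, against 37.2 ± 3.70 CPM in Ing4+/- Ing5+/+ and 33.5 ± 3.46 CPM in wild-type hearts (SD, n = 4 each). Reads of Ing5 thus remained in the Ing5-/- hearts, but no heart of these 2 genotypes overlapped one of the others except Ing4+/+ Ing5-/- 1 and wild-type 3. Ing4 averaged 34.3 ± 1.90 CPM in Ing4+/- Ing5-/- and 34.1 ± 1.85 CPM in Ing4+/- Ing5+/+ hearts, against 51.0 ± 7.31 CPM in Ing4+/+ Ing5-/- and 39.5 ± 7.60 CPM in wild-type hearts (SD, n = 4 each). The lowest Ing4 value of the 16, 28.2 CPM, was that of wild-type 2. One library stood apart for the collagens: Ing4+/+ Ing5-/- 1 held 1940 CPM of 16 epicardial marker genes in sum, against 641 to 958 CPM in the other 15 hearts. The same heart had the lowest sum of the cardiomyocyte genes (26048 CPM) and of endothelial and endocardial markers (1252 CPM).

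Basement membrane chains took most of the collagen reads of the embryonic heart. Collagens held 0.524 to 0.639% of all counts in single hearts. Over the 16 hearts, 54.7% of the collagen reads fell on the 8 basement membrane genes, 37.7% on the 11 fibrillar genes and 7.54% on the 25 others. Compared per transcript length, as RPKM (CPM per kilobase), the highest mean levels were those of Col4a1 (191 RPKM), Col18a1 (148 RPKM), Col2a1 (128 RPKM) and Col4a2 (101 RPKM). Col3a1 (89.4 RPKM), Col1a1 (50 RPKM), Col4a5 (46.4 RPKM) and Col1a2 (45.4 RPKM) followed. The fibrillar genes Col5a1 (34.3 RPKM) and Col5a2 (29.6 RPKM) came next, and within the class of other collagens the highest level was 18.2 RPKM, for Col13a1. In all, 39 of the 44 genes passed the filter on low counts: 11 of 11 fibrillar, 8 of 8 basement membrane and 20 of 25 others. The 5 that did not pass (Col6a4, Col6a5, Col10a1, Col19a1 and Col28a1) had 11 to 70 counts each over the 16 hearts.

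**Figure D1:**
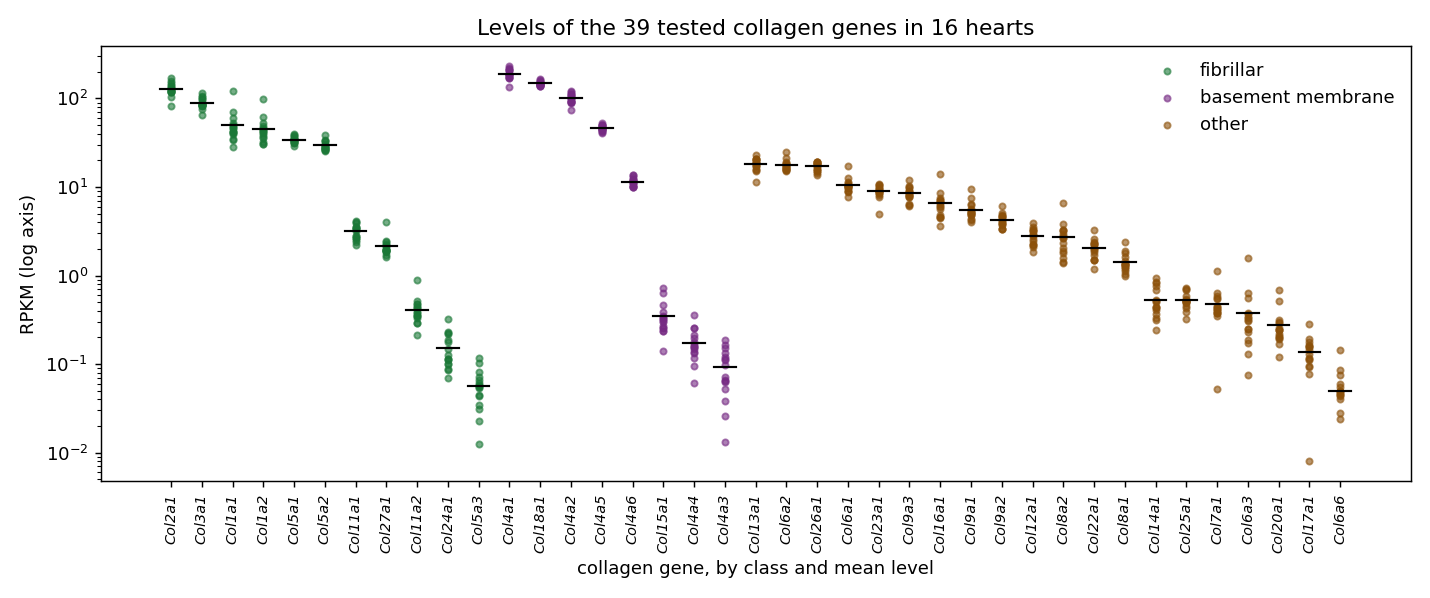
Levels of the 39 tested collagen genes in RPKM on a log axis, ordered by class and mean level; each point is 1 of 16 hearts, the line is the mean, and a heart with 0 counts is not drawn. Col4a1 leads at 191 RPKM, and the fibrillar and basement membrane classes each have a group of low genes under 1 RPKM.

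The genes differed in how far they varied between hearts. Among the genes with a mean of at least 1 RPKM, Col18a1 varied least, with a coefficient of variation of 5.89% over the 16 hearts, followed by Col4a5 with 7.15% and Col5a1 with 7.91%. Col8a2 (45.8%), Col1a1 (43.8%), Col16a1 (36.9%) and Col1a2 (36.2%) varied most, and each of these 4 had its highest value in Ing4+/+ Ing5-/- 1.

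No collagen gene changed between genotypes at a Benjamini-Hochberg adjusted p under 0.05 in edgeR's quasi-likelihood test over 15785 genes. This held for 7 comparisons: 5 between pairs of genotypes, the 8 Ing5-/- hearts against the 8 Ing5+/+ hearts over both Ing4 backgrounds, and the interaction of Ing4 and Ing5. The comparisons share hearts and are not independent of each other. Of all tested genes, 0.855% were called in Ing4+/- Ing5-/- against wild-type hearts, 1.16% in Ing4+/- Ing5-/- against Ing4+/- Ing5+/+ hearts and 2.13% in Ing5-/- against Ing5+/+ hearts. The share called was 0.0127% in Ing4+/+ Ing5-/- against wild-type, 0.00634% in Ing4+/- Ing5-/- against Ing4+/+ Ing5-/-, and 0 for Ing4+/- Ing5+/+ against wild-type and for the interaction. With 0 of 39 called, the collagens were no more often called than the background.

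At an unadjusted p under 0.05, 7 of 39 collagens passed in Ing4+/- Ing5-/- against wild-type hearts (11.4% of all genes did), 5 in Ing4+/- Ing5-/- against Ing4+/- Ing5+/+ hearts (13.9%) and 9 in Ing5-/- against Ing5+/+ hearts (16.9%). It was 4 in Ing4+/+ Ing5-/- against wild-type (9.59%), 5 in Ing4+/- Ing5-/- against Ing4+/+ Ing5-/- (6.63%), 1 in Ing4+/- Ing5+/+ against wild-type (4.73%) and 4 in the interaction (5.88%). DESeq2's Wald test called 1 collagen in Ing4+/- Ing5-/- against Ing4+/- Ing5+/+ hearts (Col4a6) and 3 in Ing5-/- against Ing5+/+ hearts (Col4a5, Col4a6 and Col13a1), all lower, and 0 in the other 5 comparisons. Of all genes DESeq2 called 172 lower in the first of these comparisons (1.09%) and 269 lower in the second (1.7%), where edgeR called 0.773% lower. limma-voom called 0 in all 7. Fewer cells of a type and less RNA per cell cannot be told apart in whole hearts.

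In Ing4+/- Ing5-/- against wild-type hearts the median log2 fold change was 0.06 for the 11 fibrillar, 0.06 for the 8 basement membrane and -0.04 for the 20 other collagens tested, beside 0.0027 for all genes. Against Ing4+/- Ing5+/+ hearts the medians were 0.04, 0.15 and 0.02 in the same order of classes, beside -0.0013 for all genes. In Ing4+/+ Ing5-/- against wild-type hearts the fibrillar median was 0.35, with 10 of 11 genes positive, the basement membrane median was -0.12, with 6 of 8 negative, and that of all genes was 0.01. Without Ing4+/+ Ing5-/- 1, a heart picked for the class medians after seeing the data, the fibrillar median of that comparison was 0.024, with 7 of 11 genes positive. The basement membrane median was then -0.099, with 7 of 8 negative. In Ing4+/- Ing5-/- against Ing4+/+ Ing5-/- hearts the fibrillar median was -0.29 with all hearts and -0.071 without that heart, and in the interaction it was -0.32 and -0.043. Ing4+/+ Ing5-/- 1 had the highest fibrillar sum of the 16 hearts, 2714 CPM. Summed over the class, fibrillar genes took 2325.0 ± 316 CPM in Ing4+/+ Ing5-/- and 2085 ± 128 CPM in wild-type hearts, and basement membrane genes took 2989 ± 330.1 CPM in Ing4+/+ Ing5-/- and 3252 ± 120.4 CPM in wild-type hearts (SD, n = 4 each). These sums overlapped between the genotypes.

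**Figure D2:**
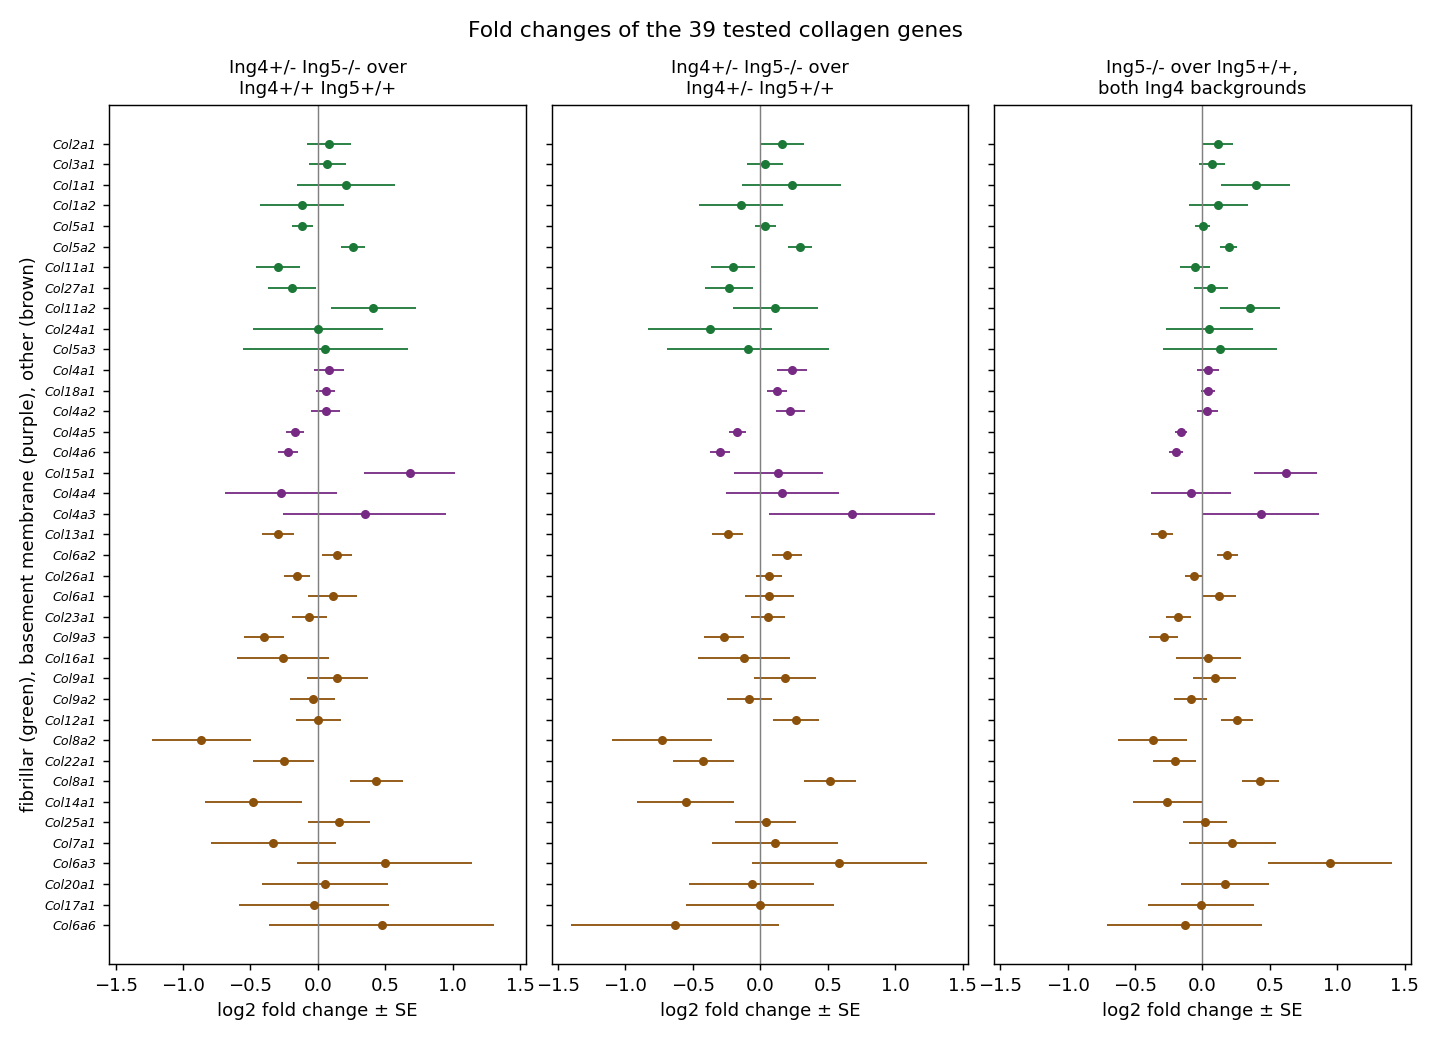
Log2 fold change with its standard error (edgeR) of the 39 tested collagen genes in 3 comparisons, Ing4+/- Ing5-/- over wild-type, Ing4+/- Ing5-/- over Ing4+/- Ing5+/+, and all Ing5-/- over all Ing5+/+ hearts; 0 of the 39 passed the adjusted threshold in any panel. The well-expressed Col4a5, Col4a6 and Col13a1 lie left of 0 in all 3 panels, Col5a2 and Col8a1 right of it.

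Among the basement membrane collagens, the genes of type IV lie in head-to-head pairs, so that the chains of a pair are transcribed away from each other from neighbouring start sites. Col4a1 and Col4a2 encode the chains of the type IV network found in nearly all basement membranes. The RefSeq promoter windows (GRCm38.p6, 250 bases before to 50 after the start) are shown for both pairs because the distance between the starts differs between them. In the first pair the starts lie 21 bases apart, each within the other gene, so that the genes overlap at their starts. The windows share 78 bases, printed in capitals, each read along its own strand. The windows span chr8:11312777-11313076 on the minus strand and chr8:11312555-11312854 on the plus strand.
Col4a1: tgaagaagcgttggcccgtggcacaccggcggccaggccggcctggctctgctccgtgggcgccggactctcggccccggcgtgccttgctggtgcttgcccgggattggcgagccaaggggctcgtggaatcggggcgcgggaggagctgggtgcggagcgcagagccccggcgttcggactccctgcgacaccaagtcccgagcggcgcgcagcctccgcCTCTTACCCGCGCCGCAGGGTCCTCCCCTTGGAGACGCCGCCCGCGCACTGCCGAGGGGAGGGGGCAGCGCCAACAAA
Col4a2: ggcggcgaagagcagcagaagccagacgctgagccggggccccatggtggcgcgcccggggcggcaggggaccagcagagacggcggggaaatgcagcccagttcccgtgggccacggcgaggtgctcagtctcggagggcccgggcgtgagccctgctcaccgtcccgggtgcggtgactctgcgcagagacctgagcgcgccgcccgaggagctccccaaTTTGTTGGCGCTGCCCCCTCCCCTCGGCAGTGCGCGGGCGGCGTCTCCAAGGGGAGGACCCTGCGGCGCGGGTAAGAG

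In the second pair the starts lie 1343 bases apart, so the windows share 0 bases, and capitals mark the GC box (GGGCGG or, on the other strand, CCGCCC). The windows span chrX:141475169-141475468 on the plus strand and chrX:141474027-141474326 on the minus strand.
Col4a5: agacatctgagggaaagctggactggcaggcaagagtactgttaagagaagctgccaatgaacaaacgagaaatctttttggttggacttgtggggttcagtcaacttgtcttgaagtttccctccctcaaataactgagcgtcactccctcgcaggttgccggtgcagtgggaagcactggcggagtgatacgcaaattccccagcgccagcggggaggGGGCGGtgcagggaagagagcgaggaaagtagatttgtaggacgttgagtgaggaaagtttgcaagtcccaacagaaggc
Col4a6: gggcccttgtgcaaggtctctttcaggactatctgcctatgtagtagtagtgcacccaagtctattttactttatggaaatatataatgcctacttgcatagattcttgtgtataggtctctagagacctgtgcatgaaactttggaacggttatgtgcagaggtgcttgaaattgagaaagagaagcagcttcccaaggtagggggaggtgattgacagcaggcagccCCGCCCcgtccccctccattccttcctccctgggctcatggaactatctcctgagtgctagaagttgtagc
Each of these 2 windows held 1 GC box. The motif was found on either strand in 23 of 38 collagen windows (60.5%), of 35 genes with a window, and in 35.7% of 32851 windows of all genes. A CCAAT box (CCAAT or ATTGG) stood in 13 of 38 collagen windows (34.2%) and 37.4% of all windows. A TATA box (TATAAA or TTTATA) stood in 5 of 38 (13.2%) and 13.6%.

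The pair on chromosome 8 was the most abundant pair of collagen chains, and neither gene passed in any comparison. Col4a1 had 1129.5, 1443, 1549 and 1422 CPM in Ing4+/- Ing5-/- hearts 1 to 4 and 882, 1388, 1205 and 1215 CPM in Ing4+/+ Ing5-/- hearts, against 1250.0, 1138, 1142 and 1169.6 CPM in Ing4+/- Ing5+/+ hearts and 1254, 1259.8, 1348 and 1371 CPM in wild-type hearts. Col4a2 had 591, 727, 787 and 712 CPM in Ing4+/- Ing5-/- hearts 1 to 4 and 481, 752, 614 and 589 CPM in Ing4+/+ Ing5-/- hearts, against 659.6, 579, 577 and 596 CPM in Ing4+/- Ing5+/+ hearts and 654, 656, 677 and 721 CPM in wild-type hearts. Ing4+/- Ing5-/- 3 was highest and Ing4+/+ Ing5-/- 1 lowest for both genes, and the range of Ing4+/- Ing5-/- hearts enclosed that of wild-type hearts for each. Col4a1 (gene ID 12826, chr8:11198423-11312889) had a log2 fold change of 0.08 ± 0.11 (SE, edgeR adjusted p = 0.840) in Ing4+/- Ing5-/- against wild-type hearts and 0.24 ± 0.11 (SE, edgeR adjusted p = 0.349) against Ing4+/- Ing5+/+ hearts. For Col4a2 (gene ID 12827, chr8:11312805-11449287) these were 0.06 ± 0.11 (SE, edgeR adjusted p = 0.891) and 0.22 ± 0.11 (SE, edgeR adjusted p = 0.359). The 4 Ing4+/- Ing5+/+ hearts lay below the 4 wild-type hearts for Col4a1, with a log2 fold change of -0.16 ± 0.11 (SE, edgeR adjusted p = 0.963). In that comparison 3 of 39 collagens did not overlap between the genotypes (Col4a1 and Col23a1 lower, Col15a1 higher), beside 3.78% of all genes (2.04% lower and 1.74% higher). The interaction was 0.40 ± 0.16 (SE, edgeR adjusted p = 0.830) for Col4a1 and 0.38 ± 0.15 (SE, edgeR adjusted p = 0.842) for Col4a2.

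The X-linked pair, Col4a5 and Col4a6, was lower in Ing4+/- Ing5-/- hearts, by little and short of the threshold. These chains form a type IV network of their own, and Col4a5 also joins the chains of Col4a3 and Col4a4 in the kidney's filter. Col4a5 had 279.8, 275, 286 and 291 CPM in Ing4+/- Ing5-/- hearts 1 to 4 and 292, 290.0, 298 and 267 CPM in Ing4+/+ Ing5-/- hearts, against 321, 292, 316 and 343 CPM in Ing4+/- Ing5+/+ hearts and 323, 299.5, 325 and 326 CPM in wild-type hearts. Every Ing4+/- Ing5-/- heart lay below every Ing4+/- Ing5+/+ and every wild-type heart, and every Ing4+/+ Ing5-/- heart lay below every wild-type heart. Col4a6 had 67.1, 67.4, 66.2 and 73.0 CPM in Ing4+/- Ing5-/- hearts 1 to 4 and 81.6, 76.8, 70.3 and 68.3 CPM in Ing4+/+ Ing5-/- hearts, against 90.5, 80.8, 74.5 and 90 CPM in Ing4+/- Ing5+/+ hearts and 78.2, 75.2, 85.7 and 79.1 CPM in wild-type hearts. Again all 4 Ing4+/- Ing5-/- hearts lay below all 8 Ing5+/+ hearts, while the Ing4+/+ Ing5-/- hearts overlapped the wild-type hearts. Such a lack of overlap was seen for 7 of 39 collagens in Ing4+/- Ing5-/- against wild-type hearts, beside 10.2% of all genes. Of these, 2 were higher (Col8a1 and Col15a1, beside 5.45% of all genes) and 5 lower (Col4a5, Col4a6, Col8a2, Col9a3 and Col13a1, beside 4.71%). Against Ing4+/- Ing5+/+ hearts it was 3 of 39, beside 10.1%, with 0 higher (5.22%) and 3 lower (Col4a5, Col4a6 and Col8a2, 4.88%). In Ing4+/+ Ing5-/- against wild-type hearts it was 3 of 39, beside 4.74%, with 0 higher (2.48%) and 3 lower (Col4a5, Col13a1 and Col23a1, 2.26%). In Ing4+/- Ing5-/- against Ing4+/+ Ing5-/- hearts it was 0 of 39, beside 3% (1.36% higher and 1.64% lower).

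Col4a5 (gene ID 12830, chrX:141475370-141689236) had a log2 fold change of -0.17 ± 0.06 (SE, edgeR adjusted p = 0.290) in Ing4+/- Ing5-/- against wild-type hearts and -0.17 ± 0.06 (SE, edgeR adjusted p = 0.228) against Ing4+/- Ing5+/+ hearts. Col4a6 (gene ID 94216, chrX:141165403-141474095) had -0.22 ± 0.07 (SE, edgeR adjusted p = 0.224) and -0.30 ± 0.07 (SE, edgeR adjusted p = 0.0571). Over both Ing4 backgrounds, Col4a5 averaged 285 ± 10.3 CPM in Ing5-/- and 318 ± 16.1 CPM in Ing5+/+ hearts, and Col4a6 71.3 ± 5.47 CPM in Ing5-/- and 81.8 ± 6.28 CPM in Ing5+/+ hearts (SD, n = 8 each). The log2 fold changes were -0.16 ± 0.04 (SE, edgeR adjusted p = 0.0696) and -0.20 ± 0.05 (SE, edgeR adjusted p = 0.0534). Within litters 4, 6 and 7, Col4a6 differed by -0.26, -0.17 and -0.30 (log2 ratio of Ing4+/- Ing5-/- over Ing4+/- Ing5+/+), and Col4a5 by -0.08, -0.15 and -0.24. Both genes are X-linked, and Y-linked genes were read in 3 of 4 hearts of each mutant genotype and 2 of 4 wild-type hearts. With the level of Y-linked genes in the model, Col4a6 passed in Ing4+/- Ing5-/- against Ing4+/- Ing5+/+ hearts (edgeR adjusted p = 0.0409) and over both backgrounds (0.0270), and Col4a5 did not (adjusted p = 0.226 and 0.0592). With litter as a block, neither passed: the edgeR adjusted p was 0.179 for Col4a6 and 0.377 for Col4a5 against Ing4+/- Ing5+/+ hearts.

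The remaining basement membrane genes gave no call either. Col18a1 had 798, 919, 952 and 935 CPM in Ing4+/- Ing5-/- hearts 1 to 4 and 831, 869, 814 and 853 CPM in Ing4+/+ Ing5-/- hearts, against 899, 814, 798 and 794 CPM in Ing4+/- Ing5+/+ hearts and 850.2, 840.5, 899.6 and 874 CPM in wild-type hearts. Col18a1 (gene ID 12822, chr10:77052178-77166530), whose protein carries endostatin at its end, varied little, and its log2 fold change was 0.06 ± 0.07 (SE, edgeR adjusted p = 0.822) in Ing4+/- Ing5-/- against wild-type hearts. Col15a1 had 2.47, 1.62, 1.71 and 1.79 CPM in Ing4+/- Ing5-/- hearts 1 to 4 and 3.38, 3.83, 1.71 and 1.26 CPM in Ing4+/+ Ing5-/- hearts, against 1.88, 1.59, 1.42 and 2.05 CPM in Ing4+/- Ing5+/+ hearts and 0.742, 1.35, 1.37 and 1.27 CPM in wild-type hearts. Col15a1 (gene ID 12819, chr4:47207655-47313167), the close relative of Col18a1, was at under 4 CPM in every heart, and wild-type heart 1 was lowest. Ing4+/+ Ing5-/- hearts 1 and 2, the highest for Col15a1, shared litter 1. The log2 fold change of Col15a1 was 0.68 ± 0.34 (SE, edgeR adjusted p = 0.465) in Ing4+/- Ing5-/- and 1.10 ± 0.34 (SE, edgeR adjusted p = 0.368) in Ing4+/+ Ing5-/- hearts, both against wild-type.

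Col4a3 and Col4a4, the third pair of type IV genes (chr1:82586921-82722059 and chr1:82448419-82587034), were near the floor. Col4a3 had 1.15, 1.41, 0.334 and 0.960 CPM in Ing4+/- Ing5-/- hearts 1 to 4 and 1.63, 0.223, 0.555 and 1.03 CPM in Ing4+/+ Ing5-/- hearts, against 0.451, 0.832, 0.542 and 0.566 CPM in Ing4+/- Ing5+/+ hearts and 0.974, 1.31, 0.114 and 0.611 CPM in wild-type hearts. Col4a4 had 1.25, 1.33, 1.15 and 1.67 CPM in Ing4+/- Ing5-/- hearts 1 to 4 and 0.748, 1.98, 1.03 and 1.41 CPM in Ing4+/+ Ing5-/- hearts, against 1.99, 1.23, 1.08 and 0.479 CPM in Ing4+/- Ing5+/+ hearts and 1.53, 2.83, 0.910 and 1.22 CPM in wild-type hearts. All genotypes overlapped for both genes, and at under 3 CPM the counts allow no finer comparison.

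**Figure D3:**
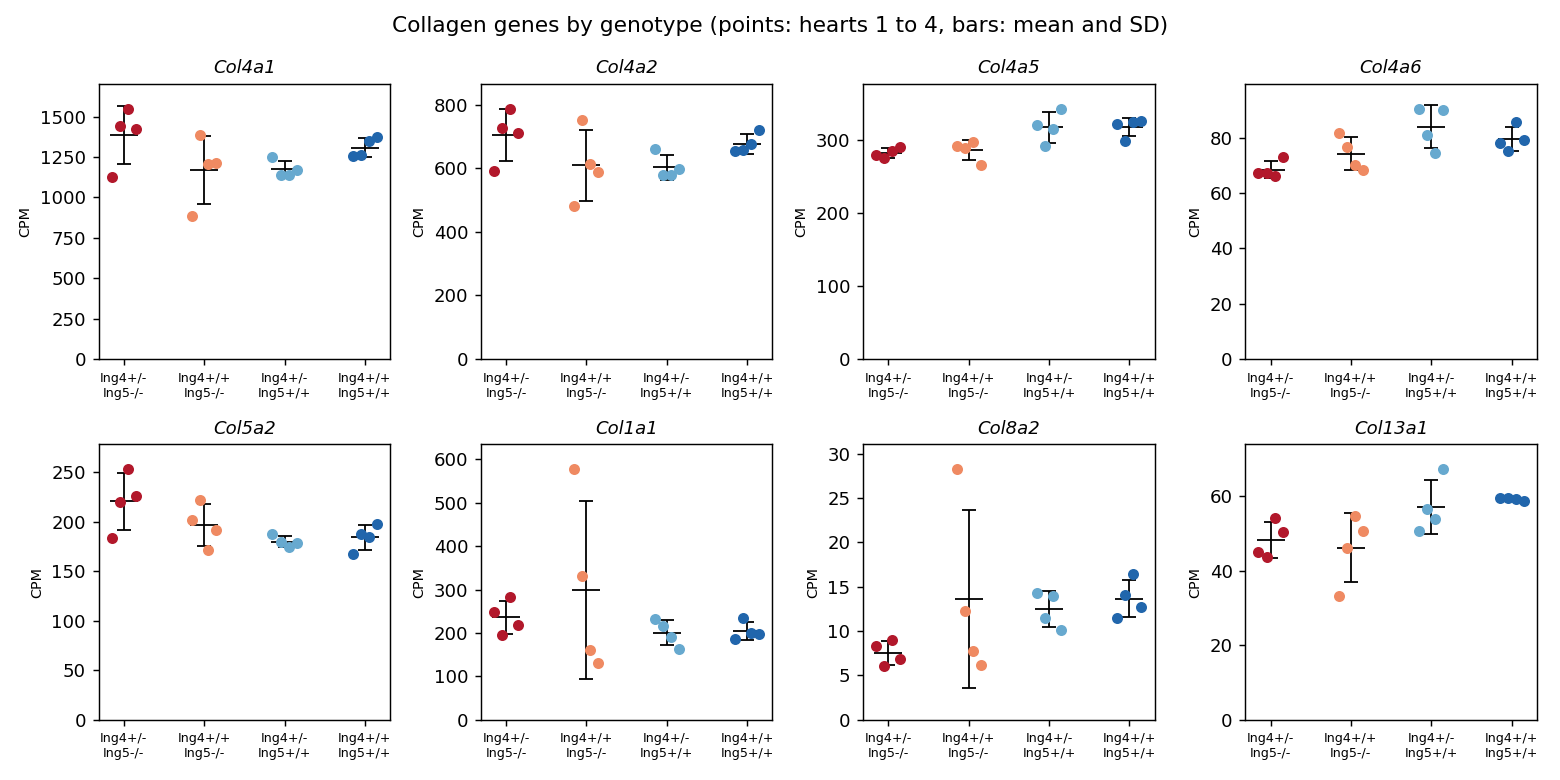
CPM of 8 collagen genes in single hearts (points, hearts 1 to 4 from left to right), with mean and SD (bars), for the 4 genotypes; axes start at 0. For Col4a5, Col4a6 and Col8a2 the 4 Ing4+/- Ing5-/- hearts lie below all Ing5+/+ hearts, and Ing4+/+ Ing5-/- 1 is the highest point for Col1a1 and Col8a2.

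Of the fibrillar collagens, Col5a2 came nearest to a change, with higher values in Ing4+/- Ing5-/- hearts. Its chain belongs to type V collagen, which is built into type I fibrils and limits their width. Col5a2 had 183, 220.4, 253 and 226 CPM in Ing4+/- Ing5-/- hearts 1 to 4 and 202, 222, 171 and 192 CPM in Ing4+/+ Ing5-/- hearts, against 188, 179, 175 and 178 CPM in Ing4+/- Ing5+/+ hearts and 168, 188, 185 and 197 CPM in wild-type hearts. The Ing4+/- Ing5-/- hearts 2 to 4 lay above all 8 Ing5+/+ hearts and heart 1 lay among them. The log2 fold change was 0.26 ± 0.09 (SE, edgeR adjusted p = 0.231) against wild-type and 0.29 ± 0.09 (SE, edgeR adjusted p = 0.121) against Ing4+/- Ing5+/+ hearts. Within litters 4, 6 and 7 it was 0.30, 0.53 and 0.34 against Ing4+/- Ing5+/+ hearts. Against Ing4+/- Ing5+/+ hearts the edgeR adjusted p was 0.0445 without Ing4+/- Ing5-/- heart 1 and 0.343 without heart 3. With litter as a block it was 0.154. Of 29 alternatives, 1 passed in this comparison, that without heart 1. Col5a2 was chosen after its values were seen, as were the other genes named only for an unadjusted p under 0.05 (Col8a1, Col9a3, Col11a1, Col12a1, Col23a1 and Col27a1).

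The chains of type I collagen, the main fibril of most connective tissue, varied between hearts of 1 genotype more than between genotypes. Col1a1 had 248, 195, 283 and 219.6 CPM in Ing4+/- Ing5-/- hearts 1 to 4 and 577, 331, 159.8 and 132 CPM in Ing4+/+ Ing5-/- hearts, against 232, 216, 192 and 164 CPM in Ing4+/- Ing5+/+ hearts and 185, 235, 200.2 and 197 CPM in wild-type hearts. Col1a2 had 218, 157, 236 and 199 CPM in Ing4+/- Ing5-/- hearts 1 to 4 and 509, 314, 168 and 156 CPM in Ing4+/+ Ing5-/- hearts, against 269, 226, 215 and 186 CPM in Ing4+/- Ing5+/+ hearts and 186, 251, 235 and 208 CPM in wild-type hearts. Ing4+/+ Ing5-/- 1 was highest of the 16 hearts for both and Ing4+/+ Ing5-/- 4 lowest, so 1 genotype held both ends of the range. Hearts 1 and 2 of that genotype, the 2 highest for both genes, shared litter 1. Col1a1 (gene ID 12842, chr11:94936224-94953042) had a log2 fold change of 0.21 ± 0.37 (SE, edgeR adjusted p = 0.884) in Ing4+/- Ing5-/- and 0.55 ± 0.37 (SE, edgeR adjusted p = 0.652) in Ing4+/+ Ing5-/- hearts, both against wild-type. For Col1a2 (gene ID 12843, chr6:4505618-4541543) these were -0.12 ± 0.31 (SE, edgeR adjusted p = 0.928) and 0.38 ± 0.31 (SE, edgeR adjusted p = 0.725). Without Ing4+/+ Ing5-/- 1 the values in Ing4+/+ Ing5-/- hearts were 0.022 for Col1a1 and -0.049 for Col1a2. The same heart held the highest epicardial and the lowest cardiomyocyte marker level (1940 and 26048 CPM in sum). The part of these in the result was not tested.

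Col2a1, the collagen of cartilage, and Col3a1, the partner of type I in elastic tissue and vessel walls, were the most abundant fibrillar chains. Col2a1 had 616, 710.0, 665 and 760.4 CPM in Ing4+/- Ing5-/- hearts 1 to 4 and 424, 609, 871 and 815 CPM in Ing4+/+ Ing5-/- hearts, against 653, 536, 601 and 670.3 CPM in Ing4+/- Ing5+/+ hearts and 635, 604, 622 and 737 CPM in wild-type hearts. Col3a1 had 454, 469, 580.5 and 513 CPM in Ing4+/- Ing5-/- hearts 1 to 4 and 641, 595, 365 and 459 CPM in Ing4+/+ Ing5-/- hearts, against 544, 466, 471 and 484 CPM in Ing4+/- Ing5+/+ hearts and 420.0, 547, 471 and 482 CPM in wild-type hearts. Ing4+/+ Ing5-/- 1 was lowest for Col2a1 and highest for Col3a1, and the genotypes overlapped. The log2 fold changes in Ing4+/- Ing5-/- against wild-type hearts were 0.08 ± 0.16 (SE, edgeR adjusted p = 0.896) for Col2a1 (gene ID 12824, chr15:97975602-98004724) and 0.07 ± 0.14 (SE, edgeR adjusted p = 0.894) for Col3a1 (gene ID 12825, chr1:45311538-45349706). The 13 cartilage and notochord markers had 507 to 642 CPM in sum in Ing4+/- Ing5-/- and 521 to 598 CPM in wild-type hearts, with 0 of the 7 that could be tested called.

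The minor fibrillar genes were low. Col11a2 had the largest fold change of the class in Ing4+/- Ing5-/- against wild-type hearts, and Col24a1 against Ing4+/- Ing5+/+ hearts, among genes with a mean of at least 1 CPM. Col11a2 had 2.51, 2.66, 2.68 and 1.88 CPM in Ing4+/- Ing5-/- hearts 1 to 4 and 4.94, 1.98, 2.18 and 1.95 CPM in Ing4+/+ Ing5-/- hearts, against 1.65, 1.99, 2.50 and 2.88 CPM in Ing4+/- Ing5+/+ hearts and 2.37, 1.21, 2.12 and 1.63 CPM in wild-type hearts. Col24a1 had 0.813, 1.33, 0.818 and 0.709 CPM in Ing4+/- Ing5-/- hearts 1 to 4 and 1.63, 1.28, 1.59 and 0.631 CPM in Ing4+/+ Ing5-/- hearts, against 1.05, 0.615, 0.792 and 2.31 CPM in Ing4+/- Ing5+/+ hearts and 1.58, 0.897, 0.493 and 0.713 CPM in wild-type hearts. The values overlapped between all genotypes, with a log2 fold change of 0.41 ± 0.32 (SE, edgeR adjusted p = 0.678) for Col11a2 and -0.37 ± 0.46 (SE, edgeR adjusted p = 0.772) for Col24a1. In Ing4+/- Ing5-/- against Ing4+/+ Ing5-/- hearts, Col27a1 had -0.55 ± 0.17 (SE, edgeR adjusted p = 0.607) and Col11a1 -0.38 ± 0.16 (SE, edgeR adjusted p = 0.718). Col27a1 was highest in Ing4+/+ Ing5-/- 1, at 30.8 CPM, and at 12.4 to 18.9 CPM in the other 15 hearts.

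Of the other collagens, Col13a1 was lower in both Ing5-/- genotypes than in wild-type hearts, and Col8a2 was lower in Ing4+/- Ing5-/- than in Ing5+/+ hearts, all short of the threshold. Col13a1 encodes a collagen that spans the cell membrane. Col13a1 had 45.0, 43.6, 54.1 and 50.5 CPM in Ing4+/- Ing5-/- hearts 1 to 4 and 33.3, 46.1, 54.6 and 50.7 CPM in Ing4+/+ Ing5-/- hearts, against 50.7, 56.6, 54.0 and 67.2 CPM in Ing4+/- Ing5+/+ hearts and 59.6, 59.5, 59.4 and 58.7 CPM in wild-type hearts. Wild-type hearts lay close together, and all 8 Ing5-/- hearts lay below all 4 of them but overlapped the Ing4+/- Ing5+/+ hearts. The log2 fold change of Col13a1 (gene ID 12817, chr10:61838234-61979206) was -0.30 ± 0.12 (SE, edgeR adjusted p = 0.335) in Ing4+/- Ing5-/- and -0.36 ± 0.12 (SE, edgeR adjusted p = 0.402) in Ing4+/+ Ing5-/- hearts, both against wild-type, and -0.30 ± 0.08 (SE, edgeR adjusted p = 0.0662) over both backgrounds. Within litter 6 the log2 ratio of Ing4+/- Ing5-/- over Ing4+/- Ing5+/+ was 0.0019, against -0.38 in litter 4 and -0.41 in litter 7.

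Col8a2 and Col8a1 encode the short chains of type VIII collagen, known from the inner layer of the cornea and from vessel walls. Col8a2 had 8.27, 6.02, 8.96 and 6.80 CPM in Ing4+/- Ing5-/- hearts 1 to 4 and 28.2, 12.2, 7.81 and 6.17 CPM in Ing4+/+ Ing5-/- hearts, against 14.3, 11.5, 14.0 and 10.1 CPM in Ing4+/- Ing5+/+ hearts and 11.5, 14.0, 16.5 and 12.7 CPM in wild-type hearts. All 4 Ing4+/- Ing5-/- hearts lay below all 8 Ing5+/+ hearts, and the Ing4+/+ Ing5-/- hearts spread over the whole range, with heart 1 highest and heart 4 next to lowest. Col8a2 (gene ID 329941, chr4:126286794-126314330) had a log2 fold change of -0.86 ± 0.37 (SE, edgeR adjusted p = 0.388) against wild-type and -0.73 ± 0.37 (SE, edgeR adjusted p = 0.403) against Ing4+/- Ing5+/+ hearts. In Ing4+/+ Ing5-/- against wild-type hearts it was -0.0083 ± 0.36 (SE, edgeR adjusted p = 0.996). With only the hearts of the 2 genotypes in the fit, so that the spread of Ing4+/+ Ing5-/- hearts did not enter, the edgeR adjusted p was 0.00338 against wild-type and 0.0371 against Ing4+/- Ing5+/+ hearts. Col8a1 had 0.43 ± 0.19 (SE, edgeR adjusted p = 0.398) and 0.52 ± 0.19 (SE, edgeR adjusted p = 0.224), opposite in sign, and 0.43 ± 0.14 (SE, edgeR adjusted p = 0.112) over both backgrounds.

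The chains of type VI collagen form beaded filaments around cells. Col6a2 had 65.9, 64.7, 79.7 and 67.2 CPM in Ing4+/- Ing5-/- hearts 1 to 4 and 91.5, 70.9, 63.4 and 57.4 CPM in Ing4+/+ Ing5-/- hearts, against 67.7, 60.0, 57.9 and 56.8 CPM in Ing4+/- Ing5+/+ hearts and 59.8, 62.1, 68.9 and 60.6 CPM in wild-type hearts. Col6a1 had 40.8, 38.3, 49.6 and 40.9 CPM in Ing4+/- Ing5-/- hearts 1 to 4 and 68.0, 43.7, 35.4 and 30.9 CPM in Ing4+/+ Ing5-/- hearts, against 45.0, 39.4, 36.2 and 41.3 CPM in Ing4+/- Ing5+/+ hearts and 35, 42.4, 41.6 and 38.3 CPM in wild-type hearts. Ing4+/+ Ing5-/- 1 was highest for both, and the genotypes overlapped. Over both backgrounds Col6a2 had a log2 fold change of 0.18 ± 0.08 (SE, edgeR adjusted p = 0.240). Col6a3 lies 2.96 Mb from Ing5 on chromosome 1. It had 3.96, 2.49, 5.98 and 3.63 CPM in Ing4+/- Ing5-/- and 17.2, 6.82, 1.43 and 2.73 CPM in Ing4+/+ Ing5-/- hearts, against 3.68, 4.09, 2.04 and 0.828 CPM in Ing4+/- Ing5+/+ and 2.74, 3.38, 3.34 and 1.88 CPM in wild-type hearts. Its highest value was again in Ing4+/+ Ing5-/- 1, and its log2 fold change in Ing4+/- Ing5-/- against wild-type hearts was 0.50 ± 0.65 (SE, edgeR adjusted p = 0.837).

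Col26a1 had 46.7, 43.7, 49.5 and 43.7 CPM in Ing4+/- Ing5-/- hearts 1 to 4 and 39.2, 40.8, 47.7 and 51.6 CPM in Ing4+/+ Ing5-/- hearts, against 41.4, 49.8, 47.0 and 37.2 CPM in Ing4+/- Ing5+/+ hearts and 51.5, 52.1, 48.8 and 52.1 CPM in wild-type hearts. The Ing4+/- Ing5+/+ hearts 1 and 4 were among the lowest for Col26a1 (gene ID 140709, chr5:136741759-136883376) and the wild-type hearts close together. It was the 1 collagen with an unadjusted p under 0.05 in Ing4+/- Ing5+/+ against wild-type hearts, with a log2 fold change of -0.22 ± 0.10 (SE, edgeR adjusted p = 0.963). Col23a1, another membrane-spanning collagen, had -0.41 ± 0.13 (SE, edgeR adjusted p = 0.379) in Ing4+/+ Ing5-/- against wild-type hearts, where the groups did not overlap, and its lowest value was 28 CPM in Ing4+/+ Ing5-/- 1. Col9a3, a chain of type IX collagen that coats type II fibrils, had -0.40 ± 0.15 (SE, edgeR adjusted p = 0.292) in Ing4+/- Ing5-/- against wild-type hearts. Col12a1, which sits on the surface of type I fibrils, had 0.26 ± 0.12 (SE, edgeR adjusted p = 0.278) over both backgrounds. Col19a1 was not tested; it stood at 2.05 CPM in Ing4+/- Ing5+/+ 4 and at 0 to 0.260 CPM in the other 15 hearts. Col7a1 and Col17a1, of the anchoring fibril and the hemidesmosome of epithelia, were lowest in the same heart, at 0.479 and 0.0436 CPM.

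The pairs of collagen genes compared here moved together from heart to heart. This held for chains that share a trimer and also for Col3a1 and Col5a2, which do not. No background of other gene pairs was computed. Over 16 hearts, log2 CPM of Col4a1 and Col4a2 had a Pearson r of 0.974 (Spearman rho 0.941, permutation p = 1e-05 for each, the smallest the 100000 permutations can give). All values of r here are on log2 CPM. For Col1a1 and Col1a2 r was 0.930 (rho 0.876, permutation p = 1e-05 for each), for Col6a1 and Col6a2 0.885 (rho 0.744, permutation p = 2e-05 and 0.0015) and for the X-linked pair 0.782 (rho 0.759, permutation p = 0.00040 and 0.00097). Col3a1 and Col5a2, neighbours on chromosome 1 that share no trimer, had 0.627 (rho 0.662, permutation p = 0.0097 and 0.0066). Adjusted over these 5 pairs, p for Pearson's r was 2.5e-05 to 0.0097 and for rho 2.5e-05 to 0.0066. Without the 2 hearts farthest from the median, r was 0.954, 0.762, 0.739, 0.697 and 0.662 in the order given. Within genotypes (deviations from the genotype means) it was 0.964, 0.983, 0.944, 0.554 and 0.772. These values share library size and cell makeup between both genes of a pair.

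**Figure D4:**
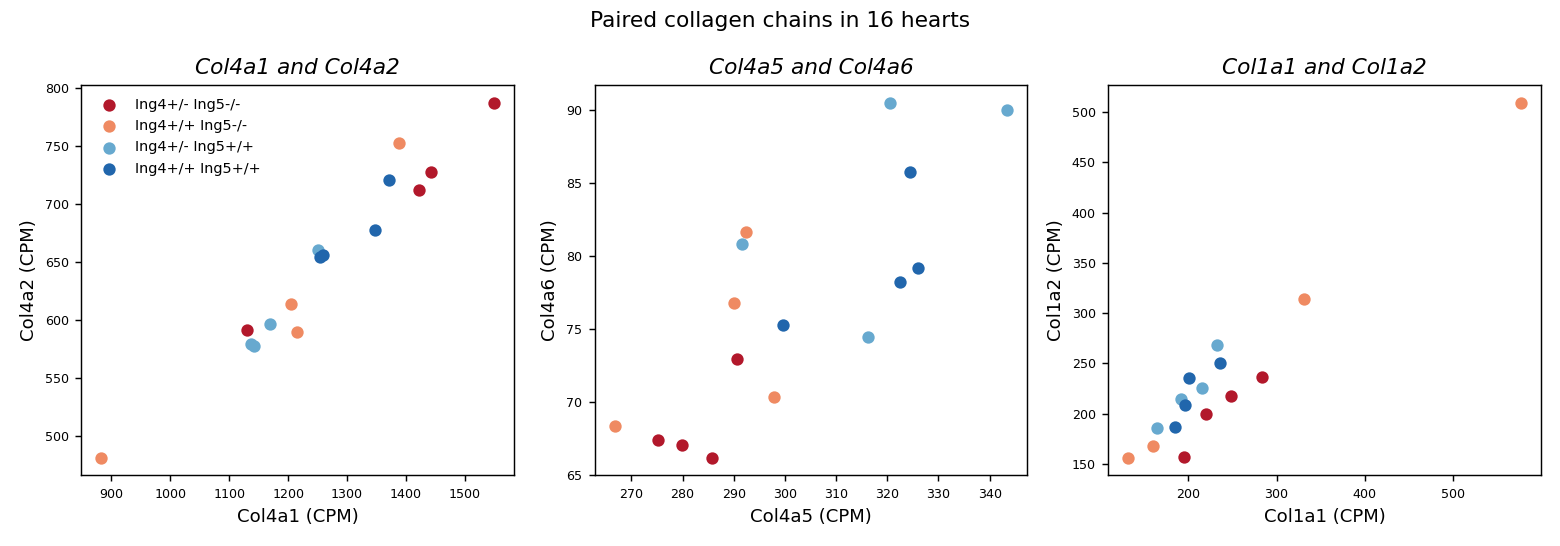
CPM of paired collagen chains in 16 hearts, 1 point a heart, coloured by genotype. Col4a1 and Col4a2 lie close to 1 line (r = 0.974, computed on log2 CPM). For Col1a1 and Col1a2 the 4 Ing4+/- Ing5-/- hearts lie toward more Col1a1 per Col1a2 than the 8 Ing5+/+ hearts.

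The ratio of the 2 chains held steady for Col4a1 over Col4a2, at 1.78 to 2.00 (median 1.91) in RPKM over the 16 hearts, and differed more for type I. Col1a1 over Col1a2 was 1.24, 1.36, 1.31 and 1.2 in Ing4+/- Ing5-/- hearts 1 to 4 and 1.24, 1.15, 1.04 and 0.919 in Ing4+/+ Ing5-/- hearts, against 0.944, 1.04, 0.973 and 0.963 in Ing4+/- Ing5+/+ hearts and 1.09, 1.03, 0.930 and 1.03 in wild-type hearts. The Ing4+/- Ing5-/- hearts lay above all 8 Ing5+/+ hearts, and the Ing4+/+ Ing5-/- hearts spanned both. On the log2 scale the difference was 0.33 ± 0.06 (SE) against wild-type and 0.38 ± 0.05 (SE) against Ing4+/- Ing5+/+ hearts. The exact permutation test (2-sided) gave p = 0.0286 for each, the smallest that 4 hearts against 4 allow, and 0.171 after adjustment over 30 tests (5 pairs in 6 comparisons). For all Ing5-/- against all Ing5+/+ hearts the difference was 0.23 ± 0.07 (SE, permutation p = 0.0073, adjusted 0.171). The other ratios that did not overlap between Ing4+/- Ing5-/- and Ing4+/- Ing5+/+ hearts were Col6a1 over Col6a2 (-0.13 ± 0.05) and Col3a1 over Col5a2 (-0.25 ± 0.06, SE), each with the same exact p and adjusted p. The ratios were added after the values had been seen, and none passed the adjustment.

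Of the genes for enzymes and partners of collagen, 6 rose in Ing4+/- Ing5-/- hearts against Ing5+/+ hearts of at least 1 genotype, and over both Ing4 backgrounds. The lists were modification and folding of the chains (21 genes tested), propeptide removal and cross-linking (14), fibril partners (18), basement membrane partners (20), receptors (10) and breakdown (8). In Ing4+/- Ing5-/- against wild-type hearts 3 of 21 modification genes were called higher (P4ha1, P4ha2 and Plod2), 1 of 14 cross-linking genes (Loxl2) and 1 of 20 basement membrane partners (Lamb2), beside 0.697% of all genes called higher. Against Ing4+/- Ing5+/+ hearts it was 2 of 21 (P4ha1 and P4ha2), 1 of 14 (Loxl2) and 2 of 20 (Lamb2 and Hspg2), beside 0.76%, and over both backgrounds 3 of 21, 1 of 14 and 2 of 20, beside 1.36%. In Ing4+/+ Ing5-/- against wild-type hearts 0 genes were called in each list by edgeR, beside 0.0127% of all genes. There 3 of 21 modification genes, 4 of 14 cross-linking genes and 1 of 20 basement membrane partners had an unadjusted p under 0.05, beside 9.59% of all genes. None of these genes was called lower, and no fibril partner, receptor or breakdown gene was called in any of the 7 comparisons by edgeR. At an unadjusted p under 0.05, 0 of 18 fibril partners, 2 of 10 receptors and 0 of 8 breakdown genes passed in Ing4+/- Ing5-/- against wild-type hearts, beside 11.4% of all genes. The medians of the 3 lists with calls were -0.00079, -0.07 and -0.02 in that comparison, beside 0.0027 for all genes.

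P4ha1 and P4ha2 encode the catalytic chains of prolyl 4-hydroxylase, which modifies prolines so that the triple helix is stable. P4ha1 had 143, 142, 147 and 172 CPM in Ing4+/- Ing5-/- hearts 1 to 4 and 137, 139, 154 and 138 CPM in Ing4+/+ Ing5-/- hearts, against 102, 94.4, 101 and 126 CPM in Ing4+/- Ing5+/+ hearts and 88.9, 128, 110.1 and 112 CPM in wild-type hearts. P4ha2 had 60.2, 67.7, 54.4 and 70.7 CPM in Ing4+/- Ing5-/- hearts 1 to 4 and 54.7, 47.9, 79.6 and 47.9 CPM in Ing4+/+ Ing5-/- hearts, against 34.6, 34.6, 33.7 and 43.0 CPM in Ing4+/- Ing5+/+ hearts and 32.4, 47.0, 35.6 and 37.8 CPM in wild-type hearts. For both genes all 8 Ing5-/- hearts lay above all 8 Ing5+/+ hearts. The share of all genes that separate in this way was not computed, and both genes are named because they were called in these data. P4ha1 rose by a log2 fold change of 0.46 ± 0.10 (SE, edgeR adjusted p = 0.0325) in Ing4+/- Ing5-/- against wild-type hearts, 0.51 ± 0.10 (SE, edgeR adjusted p = 0.0167) against Ing4+/- Ing5+/+ hearts and 0.44 ± 0.07 (SE, edgeR adjusted p = 0.00226) over both backgrounds. For P4ha2 these were 0.73 ± 0.15 (SE, edgeR adjusted p = 0.0313), 0.80 ± 0.15 (SE, edgeR adjusted p = 0.0167) and 0.69 ± 0.11 (SE, edgeR adjusted p = 0.00263). Plod2, a lysyl hydroxylase whose products form stable cross-links, averaged 136 ± 18.9 CPM in Ing4+/- Ing5-/- and 121 ± 14.7 CPM in Ing4+/+ Ing5-/- hearts, against 102 ± 8.95 CPM in Ing4+/- Ing5+/+ and 97.2 ± 11.8 CPM in wild-type hearts (SD, n = 4 each). It rose by 0.48 ± 0.11 (SE, edgeR adjusted p = 0.0363) in Ing4+/- Ing5-/- against wild-type hearts and 0.36 ± 0.08 (SE, edgeR adjusted p = 0.0154) over both backgrounds, and had 0.41 ± 0.11 (SE, edgeR adjusted p = 0.0682) against Ing4+/- Ing5+/+ hearts.

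Loxl2, a lysyl oxidase that cross-links type IV collagen, and the basement membrane gene Lamb2 (a laminin chain) moved the same way. Hspg2 (perlecan), another basement membrane gene, was called higher against Ing4+/- Ing5+/+ hearts and over both backgrounds, but not against wild-type hearts. Loxl2 had 292, 363, 299.5 and 391 CPM in Ing4+/- Ing5-/- hearts 1 to 4 and 251, 316, 317 and 255 CPM in Ing4+/+ Ing5-/- hearts, against 271, 236, 225 and 254 CPM in Ing4+/- Ing5+/+ hearts and 215, 260.3, 215 and 242 CPM in wild-type hearts. Every Ing4+/- Ing5-/- heart lay above every Ing5+/+ heart. For 1 genotype at a time, 5.45% of all genes did so against wild-type and 5.22% against Ing4+/- Ing5+/+ hearts. Loxl2 rose by 0.53 ± 0.11 (SE, edgeR adjusted p = 0.0199) against wild-type, 0.45 ± 0.10 (SE, edgeR adjusted p = 0.0395) against Ing4+/- Ing5+/+ hearts and 0.37 ± 0.07 (SE, edgeR adjusted p = 0.0101) over both backgrounds. Lamb2 had 136, 149, 168 and 147 CPM in Ing4+/- Ing5-/- hearts 1 to 4 and 151, 142, 138 and 135 CPM in Ing4+/+ Ing5-/- hearts, against 129.6, 115, 116 and 115 CPM in Ing4+/- Ing5+/+ hearts and 116, 113, 119 and 127 CPM in wild-type hearts. All 8 Ing5-/- hearts lay above all 8 Ing5+/+ hearts for Lamb2, again without a computed share of all genes to set beside it. Lamb2 rose by 0.34 ± 0.07 (SE, edgeR adjusted p = 0.0257), 0.34 ± 0.07 (SE, edgeR adjusted p = 0.0231) and 0.29 ± 0.05 (SE, edgeR adjusted p = 0.00336) in the same order. Hspg2 had 571, 852, 662 and 572 CPM in Ing4+/- Ing5-/- hearts 1 to 4 and 804, 788, 651 and 585 CPM in Ing4+/+ Ing5-/- hearts, against 488, 466, 434 and 466 CPM in Ing4+/- Ing5+/+ hearts and 696, 593, 551 and 641 CPM in wild-type hearts. The Ing4+/- Ing5+/+ hearts were lowest for Hspg2 and the wild-type hearts overlapped the Ing5-/- hearts. Hspg2 rose by 0.52 ± 0.12 (SE, edgeR adjusted p = 0.0396) in Ing4+/- Ing5-/- against Ing4+/- Ing5+/+ hearts and 0.35 ± 0.09 (SE, edgeR adjusted p = 0.0336) over both backgrounds. Within litters 4 and 6 its log2 ratio of Ing4+/- Ing5-/- over wild-type was 0.29 and 0.05. In Ing4+/+ Ing5-/- against wild-type hearts none of the 6 passed in edgeR: the log2 fold change was 0.37 ± 0.10 for P4ha1, 0.59 ± 0.15 for P4ha2, 0.31 ± 0.11 for Plod2, 0.29 ± 0.10 for Loxl2, 0.25 ± 0.07 for Lamb2 and 0.19 ± 0.12 for Hspg2 (SE, adjusted p 0.338 to 0.627).

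**Figure D5:**
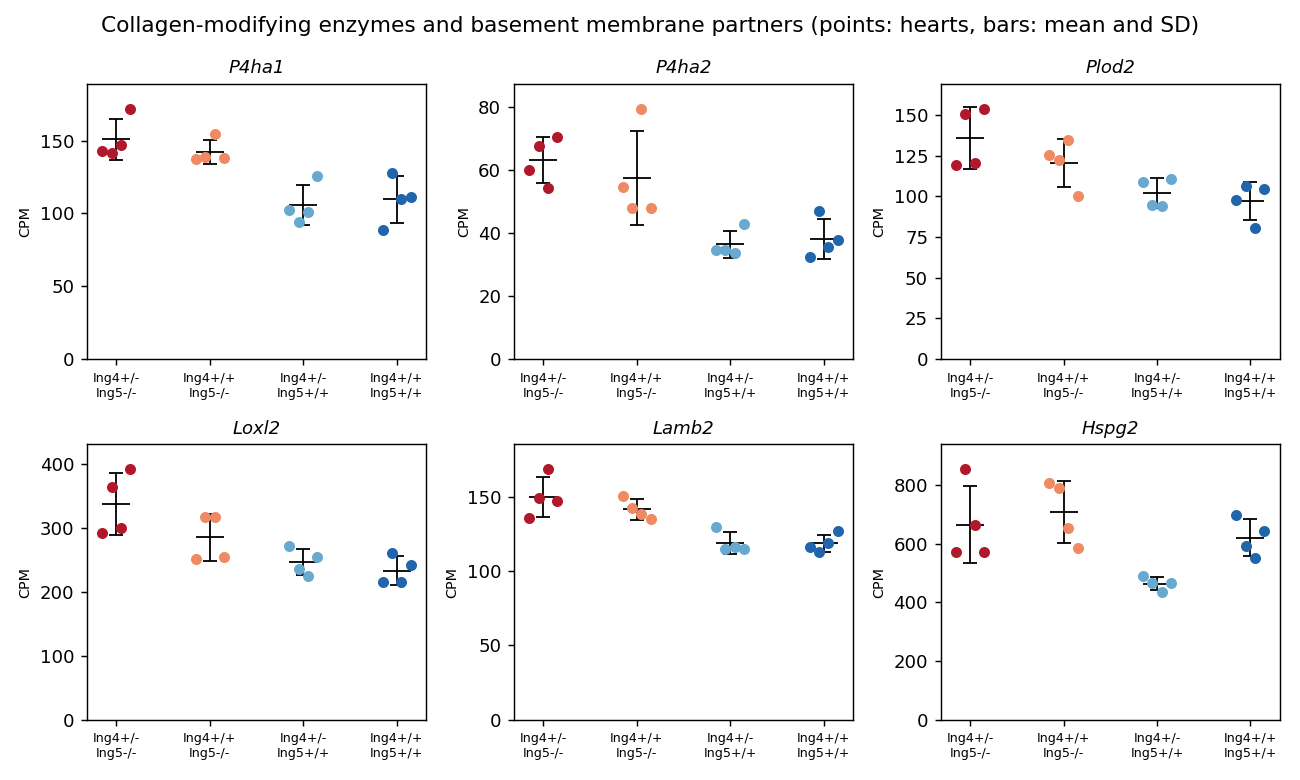
CPM of 6 genes for collagen-modifying enzymes and basement membrane partners in single hearts (points), with mean and SD (bars), for the 4 genotypes; axes start at 0. For P4ha1, P4ha2 and Lamb2 all 8 Ing5-/- hearts lie above all 8 Ing5+/+ hearts, and for Hspg2 the Ing4+/- Ing5+/+ hearts are lowest. The genes shown were chosen for their calls, and the share of all genes that separate 8 against 8 was not computed.

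With litter as a block the log2 fold changes against wild-type hearts were 0.50 ± 0.11 for P4ha1, 0.76 ± 0.15 for P4ha2, 0.38 ± 0.16 for Plod2, 0.52 ± 0.15 for Loxl2 and 0.35 ± 0.10 for Lamb2 (SE). Against Ing4+/- Ing5+/+ hearts the 5 called genes had 0.39 to 0.76, and over both backgrounds the 6 had 0.27 to 0.55. With litter as a block in edgeR, none of the 5 calls against wild-type hearts and none of the 6 over both backgrounds passed (adjusted p 0.122 to 0.639 and 0.106 to 0.445). Against Ing4+/- Ing5+/+ hearts P4ha1 (0.0326) and P4ha2 (0.0173) passed, and Loxl2 (0.118), Lamb2 (0.0517) and Hspg2 (0.0819) did not. Ing4+/+ Ing5-/- and wild-type hearts share no litter, so that comparison has no value within a litter. Within litters 4, 6 and 7 the log2 ratio of Ing4+/- Ing5-/- over Ing4+/- Ing5+/+ was 0.59, 0.54 and 0.45 for P4ha1, 0.97, 0.69 and 0.72 for P4ha2, and 0.37, 0.54 and 0.35 for Lamb2. Over both backgrounds the calls of P4ha1, P4ha2, Plod2, Loxl2 and Lamb2 held without any 1 of the 16 hearts, and that of Hspg2 was lost without any 1 of 11 hearts, all but wild-type 1, Ing4+/+ Ing5-/- 3 and 4 and Ing4+/- Ing5-/- 1 and 4 (edgeR adjusted p 0.0525 to 0.0755).

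Against wild-type hearts, all 5 calls were lost without wild-type 1, 3 or 4 and without Ing4+/- Ing5-/- 2 or 4 (edgeR adjusted p 0.0513 to 0.161, over all hearts whose removal ended a call). Further losses were those of P4ha1 and Lamb2 without Ing4+/- Ing5-/- 3, of P4ha2 without Ing4+/- Ing5-/- 1, and of Plod2 and Lamb2 without wild-type 2. Against Ing4+/- Ing5+/+ hearts, all 5 calls were lost without Ing4+/- Ing5+/+ 2, and some without any other heart of that genotype or without Ing4+/- Ing5-/- 2, 3 or 4 (adjusted p 0.0505 to 0.138). There Loxl2 was also lost without wild-type 1, 3 or 4, and Hspg2 without wild-type 2 or 4.

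Markers of other cells differed beside these genes. By edgeR, 7 of 15 macrophage markers were called higher in Ing4+/- Ing5-/- against wild-type hearts, 2 of 15 against Ing4+/- Ing5+/+ hearts and 11 of 15 over both backgrounds. Of all genes, 0.697%, 0.76% and 1.36% were called higher in these comparisons, in the same order. The summed level of the macrophage markers was 65.9 to 100.3 CPM in Ing4+/- Ing5-/- hearts, against 42.5 to 49.4 CPM in Ing4+/- Ing5+/+ and 35 to 50.4 CPM in wild-type hearts. Ing4+/+ Ing5-/- hearts 1 and 2, both of litter 1, had 96.9 and 90.3 CPM, and hearts 3 and 4 had 41.2 and 42.3 CPM. The part of litter in these sums was not tested. Of 16 epicardial markers, 1 (Krt19) was called higher against wild-type and against Ing4+/- Ing5+/+ hearts, and 2 (Krt19 and Krt8) over both backgrounds. With 0 called lower, most log2 fold changes in Ing4+/- Ing5-/- hearts were still negative. These were 12 of 16 against wild-type (median -0.37) and 12 of 16 against Ing4+/- Ing5+/+ hearts (median -0.36). In Ing4+/+ Ing5-/- against wild-type hearts all 16 were positive (median 0.27). The summed level of the epicardial markers was 642 to 765 CPM in Ing4+/- Ing5-/- and 641 to 1940 CPM in Ing4+/+ Ing5-/- hearts. It was 728 to 958 CPM in Ing4+/- Ing5+/+ and 869.5 to 932 CPM in wild-type hearts. By this sum every Ing4+/- Ing5-/- heart lay below every wild-type heart. Endothelial and endocardial markers summed to 1541 to 2047 CPM in Ing4+/- Ing5-/- and 1574 to 1818 CPM in wild-type hearts, with 0 of 14 called there and 1 (Egfl7, higher) over both backgrounds. In Ing4+/- Ing5-/- against wild-type hearts 11 were positive and 3 negative (median log2 fold change 0.20). There 5 of 14 had an unadjusted edgeR p under 0.05, beside 11.4% of all genes. In Ing4+/+ Ing5-/- against wild-type hearts 2 were positive and 12 negative (median -0.09). Cushion mesenchyme markers summed to 1961 to 2569.6 CPM in Ing4+/- Ing5-/- and 2063 to 2355 CPM in wild-type hearts, with 0 of 16 called. Erythroid genes spread from 7953 to 49699 CPM in Ing4+/- Ing5-/- and from 9074 to 12064 CPM in wild-type hearts, with 0 of 12 called. All 12 were positive in that comparison (median log2 fold change 1.09), with 0 at an unadjusted edgeR p under 0.05. The part of these cell types in the results above was not tested.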

How the data were processed

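RNA was sequenced from 16 whole hearts with a stranded kit, per the labels. The authors deposited raw counts of reads per gene, with gene lengths in bases (other); bcl2fastq, featureCounts (versions not given) and mm10 were used, per the submitters' processing notes, and no source used here names the aligner. The 16 single-sample tables equalled the series table. Of 27179 gene IDs, 25275 (93.0%) matched a RefSeq symbol, and 1904 did not (2.08% of reads). In R 4.3.3, edgeR 4.0.16 (limma 3.58.1, DESeq2 1.42.0 as alternatives) kept 15785 genes, TMM factors were 0.967 to 1.082 and the biological coefficient of variation was 0.159. A quasi-likelihood model with robust estimation was fitted to 4 genotype means, and p-values were Benjamini-Hochberg adjusted over all genes (called under 0.05). The function was tested on simulated data. Each standard error is the fold change over the square root of F. Differences between hearts of 1 genotype exceeded counting error (chi-square per degree of freedom 6.68 to 108). Counting without strand is not excluded by the sources, so reads where Col4a1 and Col4a2 overlap may be assigned to either.

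The members, lists and alternatives were chosen with earlier results of these data known. Named heart by heart were the 4 collagens of each class with the highest RPKM, the largest fold change of each class, all type IV genes and up to 4 called genes of each list. Col5a2 and Col6a3 were also given heart by heart, outside these rules. Alternatives were other scaling, filters and tools, litter or replicate number as a block, covariates, and leaving out libraries; a fit without robust estimation and a litter block with Y-linked level were added after seeing the data, as the robust setting itself was not part of the design as written. Residuals of same-numbered hearts of different genotypes correlated above 0.1 in 5 of 24 pairs (median 0.020). Those of littermates of different genotypes did so in 3 of 11 pairs (median 0.024). As littermates gave much the same values, this check cannot tell whether replicate numbers pair the hearts.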

Additional observations from a re-analysis of the deposited data

Results flagged for a closer look

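In 8 of 172 groups of 4 hearts, 1 heart lay far from the other 3 by Dixon's test at its 95% critical value. Chance alone gives about 1 in 20, or 8.6 here. For Col4a5, wild-type 2 had 299.5 CPM and the others 323 to 326 CPM. Wild-type 2 was also apart for Col9a3, with 34.1 CPM against 25.2 to 25.9 CPM. Wild-type 1 had 0.742 CPM of Col15a1 and the others 1.27 to 1.37 CPM, and wild-type 3 had 1.55 CPM of Col17a1 and the others 0.417 to 0.518 CPM. Ing4+/+ Ing5-/- 1 had 4.94 CPM of Col11a2, and the others 1.95 to 2.18 CPM. Ing4+/- Ing5-/- 3 had 79.7 CPM of Col6a2, and the others 64.7 to 67.2 CPM. Ing4+/- Ing5-/- 4 had 36.9 CPM of Col9a1, with 16.8 to 20.2 CPM in the others, and 14.6 CPM of Col22a1, with 9.09 to 9.29 CPM in the others.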

How the results depend on the processing

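The count of called collagens was computed under 29 alternatives in 7 comparisons, and it stayed at 0 in 183 of 201 results. DESeq2's Wald test called 1 (Col4a6) in Ing4+/- Ing5-/- against Ing4+/- Ing5+/+ hearts and 3 over both Ing4 backgrounds. Y-linked level as a covariate gave 1 (Col4a6) in each of these 2 comparisons, beside 1.18 and 2.17% of all genes called. With only the groups compared it was 2 against wild-type (Col8a2 and Col13a1) and 1 against Ing4+/- Ing5+/+ hearts (Col8a2), beside 3.07 and 1.86% of all genes. Without Ing4+/- Ing5+/+ 4, Ing4+/+ Ing5-/- 1 and Ing4+/- Ing5-/- 2 it was 1 against wild-type (Col8a2) and 3 over both backgrounds (Col4a6, Col8a2 and Col9a3), beside 2 and 2.79% of all genes. Leaving out 1 heart gave 0 to 1 against wild-type, 0 to 2 against Ing4+/- Ing5+/+ hearts and 0 to 5 over both backgrounds. The counts of 1 against wild-type, 2 and 5 came without Ing4+/+ Ing5-/- 1 (Col8a2; Col4a6 and Col8a2; Col4a5, Col4a6, Col8a2, Col9a3 and Col13a1). Without that heart 321 genes of all were called against wild-type (135 with it), 461 against Ing4+/- Ing5+/+ hearts (183 with it) and 459 over both backgrounds (336 with it), which is 2.02, 2.9 and 2.89% of the genes tested, and the collagens called were 2.56, 5.13 and 12.8% of those tested. A count of 1 also came without Ing4+/- Ing5-/- 1 (Col5a2) or Ing4+/- Ing5+/+ 3 (Col4a6) in both of the last 2 comparisons, without Ing4+/+ Ing5-/- 4 (Col4a6) against Ing4+/- Ing5+/+ hearts, and without Ing4+/+ Ing5-/- 3 (Col13a1) over both backgrounds. In these 6 results 0.731 to 2.15% of all genes were called.

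With replicate number as a block, 1 of 39 collagens (Col13a1, 2.56%) was called over both backgrounds, beside 2.02% of all genes, and 0 in the other comparisons. Whether the numbers pair the hearts is not known. With litter as a block 0 were called, and of all genes 15 against wild-type (135 without it), 78 against Ing4+/- Ing5+/+ hearts (183) and 17 over both backgrounds (336). DESeq2 called 325, 486 and 706 of all genes. Of 1982 values of single genes, 5 changed sign, all near 0. Against wild-type, Col1a2 in Ing4+/- Ing5-/- hearts was 0.025 with haemoglobin level as a covariate, and leaving out 1 heart gave -0.0011 to 0.13 for Col4a2 and -0.0047 to 0.14 for Col3a1 (both lowest without Ing4+/- Ing5-/- 3). Col1a2 in Ing4+/+ Ing5-/- hearts ranged from -0.049 without Ing4+/+ Ing5-/- 1 to 0.58, and was -0.052 without the 3 libraries. The cause was not tested. Depth limits the genes under 1 CPM, and the 5 untested collagens most of all.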
